A study of Homo sapiens with 12 samples.

Results

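The miR-23/27/24 clusters are 2 short stretches of the human genome, each of which encodes miR-23, miR-27 and miR-24 within 1 primary transcript. They were followed here in extracellular vesicles (EV) as 7 of the 1133 miRNA in the count table. The members were named by their mature forms: hsa-miR-23a-3p, hsa-miR-27a-3p and hsa-miR-27a-5p from the a cluster, hsa-miR-23b-3p, hsa-miR-27b-3p and hsa-miR-27b-5p from the b cluster, and hsa-miR-24-3p, which both clusters encode with the same bases. The prefix is left out below. Of these 7, 6 were expressed, meaning that all 3 libraries of some EV group reached 5 CPM (counts per 1e6 miRNA counts), a level met by 367 of the 1133 miRNA. The exception was miR-27a-5p.

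The study sequenced small RNA from EV of the established human induced pluripotent stem cell (hiPSC) line IMR90-4 and of the cells made from it on the way to cardiomyocytes, in 4 groups of 3 independent isolations. hiPSC-EV came from undifferentiated cells at day 0, with medium conditioned for 24 h, and CPC-EV from cardiac progenitor cells at day 6, with medium conditioned for 72 h. CMi-EV came from immature cardiomyocytes at day 15 and CMm-EV from more mature cardiomyocytes at day 35, both grown as aggregates and with medium conditioned for 48 h, the latter in a maturation medium with galactose and fatty acids. All groups derive from 1 cell line. The culture medium changed with the stage, so that stage and medium cannot be told apart. hiPSC and cardiac progenitor cells grew as monolayers. Between them and the aggregates, stage and culture format cannot be told apart. The same holds for conditioning time at the first 2 steps and between hiPSC-EV and CMm-EV (24 h and 48 h). Fewer vesicles from a cell type and less of a miRNA per vesicle cannot be told apart either.

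A miRNA is cut from a hairpin precursor, and either arm, 5p or 3p, can be loaded into an Argonaute protein, which it guides to messenger RNA by pairing through the seed near its 5′ end. In the vasculature, the miR-23/27/24 clusters are known for regulating sprouting of endothelial cells, and in the heart miR-24 and miR-27 have been studied in cardiomyocytes and in hypertrophy. The a cluster lies in a noncoding host transcript and the b cluster within a protein-coding gene, so that their transcription can differ although their products are nearly alike.

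The mature sequences are shown because the comparison of the clusters rests on very few bases. All 7 members matched an entry of RefSeq (build GRCh38.p14), and capitals mark the seed, bases 2 to 8 counted from the 5′ end. Those of miR-23 share one seed, those of miR-27 another, and miR-24-3p and each 5p arm have their own.
miR-23a-3p: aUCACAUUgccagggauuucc
miR-23b-3p: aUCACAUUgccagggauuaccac
miR-27a-3p: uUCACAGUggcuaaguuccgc
miR-27b-3p: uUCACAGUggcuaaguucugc
miR-24-3p: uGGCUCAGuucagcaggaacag
miR-27a-5p: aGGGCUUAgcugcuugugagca
miR-27b-5p: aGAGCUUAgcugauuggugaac

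Over the 21 bases that miR-23a-3p and miR-23b-3p have in common, 20 are identical and 1 differs, U19A, with the a form first and positions counted from the 5′ end. miR-27a-3p and miR-27b-3p likewise differ by C19U alone. The first 18 bases are the same in either pair, so a read that ends before base 19 cannot be assigned to 1 cluster. Expected counts of the authors' pipeline were not whole (tolerance 1e-06) in 5 of the 12 libraries for miR-23a-3p, 4 for miR-23b-3p, 5 for miR-27a-3p and 5 for miR-27b-3p, but in 0 for miR-24-3p. The split of reads between the a and b forms is therefore uncertain to an extent that these tables do not give. The sum of a pair was itself not whole in 1 library for miR-23a-3p and miR-23b-3p and in 4 libraries for miR-27a-3p and miR-27b-3p, so the fractions do not come from the split within pairs alone. The 5p arms are easier to separate, since miR-27a-5p and miR-27b-5p differ at 8 of 22 bases, the first of them G3A within the seed. Other miRNA with a seed of the members were rare: miR-23c, from the X chromosome, had 34 counts over all 12 libraries, and miR-9985, with the miR-27 seed, had 44.

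On hg38, the b cluster spans 881 bases of the plus strand at chr9:95085208-95086088, and the a cluster 373 bases of the minus strand at chr19:13836287-13836659. All positions checked in the genome gave the RefSeq bases, 15 of 15 mature sites of the clusters and their relatives. In GENCODE v44, the precursors of miR-23b and miR-27b (chr9:95085208-95085304 and chr9:95085445-95085541) lie within introns of AOPEP, an aminopeptidase gene at chr9:94726604-95151793. The precursor mir-24-1 (chr9:95086021-95086088) lies within an exon of at least 1 of its annotated transcripts. The precursors of miR-23a, miR-27a and mir-24-2 (chr19:13836587-13836659, chr19:13836440-13836517 and chr19:13836287-13836359) all lie within an exon of the long noncoding RNA MIR23AHG. Fragments of AOPEP, listed under its older symbol C9orf3, were too rare to follow the host: 7 counts in hiPSC-EV 3, as 6 and 1 in its separate transcript classes, 1 in CMm-EV 3 and 0 in every other library. No fragments were listed under the name MIR23AHG, and other names for its locus were not used.

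Counts on miRNA per library ranged from 703415 in hiPSC-EV 1 to 6272455 in CMm-EV 2. The other totals were 2511807 and 5598291 in hiPSC-EV, 1680153, 3380608 and 1539043 in CPC-EV, 2163510, 1686607 and 1364735 in CMi-EV, and 984865 and 5072948 in CMm-EV. Levels below are CPM of these totals, scaled over all 12 libraries by trimmed means of M-values (TMM). Where a count is 0, up to 3 counts could have been missed by chance in counting alone. That bound ranged from 0.640 CPM (hiPSC-EV 3) to 3.64 CPM (CMm-EV 1).

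Among the 5 3p members, miR-27b-3p was by far the most abundant, and no group mean of the other 4 was above 1916 CPM. The mean level of miR-27b-3p was 3991 CPM ± 1438 (SD, n = 3) in hiPSC-EV, which placed it at rank 29 of 367 expressed miRNA, and 15974 CPM ± 1693 in CMm-EV, at rank 14. The same ranks were 119 and 40 for miR-24-3p, 105 and 45 for miR-23b-3p, 113 and 52 for miR-27a-3p, and 107 and 61 for miR-23a-3p. Ligation and amplification differ between sequences, so that these orders describe reads and not molecules.

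All 5 of them differed across the 4 EV groups in the F-test of edgeR's quasi-likelihood method with Benjamini-Hochberg adjustment (FDR), and miR-27b-5p did not. That is 5 of the 7 members, against 186 of all 367 miRNA tested, or 50.7%. The FDR was 7.99e-06 for miR-24-3p, 7.63e-04 for miR-27b-3p, 0.00170 for miR-27a-3p, 0.00764 for miR-23a-3p, 0.0176 for miR-23b-3p and 0.679 for miR-27b-5p. When no filter on low counts was applied, miR-23a-3p, miR-27a-3p and miR-23b-3p no longer passed (FDR 0.230, 0.230 and 0.217), and with library size as the only scaling miR-23a-3p did not (0.0650). Over the alternatives, the FDR ranged from 2.84e-35 to 3.19e-04 for miR-24-3p and from 2.80e-16 to 0.00364 for miR-27b-3p.

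miR-24-3p, the product of both clusters, had a higher mean level at each later stage. Its levels were 254, 187 and 265 CPM in hiPSC-EV 1 to 3, 414, 529 and 499 CPM in CPC-EV, 1048, 1112 and 1006 CPM in CMi-EV, and 1776, 1750 and 2220 CPM in CMm-EV. With TMM, every library of a stage lay above every library of the stage before it, and miR-24-3p was the 1 member for which the 4 groups were separated in this way. With library size as the only scaling, the last 2 groups overlapped, since miR-24-3p had 0.110%, 0.126% and 0.102% of the miRNA counts in CMi-EV 1 to 3, and 0.149%, 0.105% and 0.111% in CMm-EV.

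The levels of miR-23a-3p were similar in hiPSC-EV and CPC-EV. They were 199.7, 273 and 439 CPM in hiPSC-EV 1 to 3, 240.2, 289 and 140.2 CPM in CPC-EV, 548, 507 and 460.0 CPM in CMi-EV, and 576, 872 and 1065 CPM in CMm-EV. hiPSC-EV and CPC-EV overlapped, CMi-EV lay above both, and CMm-EV lay above CMi-EV by a narrow gap, from 548 to 576 CPM. Its partner in the a cluster, miR-27a-3p, had 202.0, 255 and 378 CPM in hiPSC-EV 1 to 3, 413, 365 and 504 CPM in CPC-EV, 746, 795 and 706 CPM in CMi-EV, and 854, 1256 and 961 CPM in CMm-EV. Here too hiPSC-EV and CPC-EV overlapped, and with TMM each later group lay above the one before. With library size only, CMm-EV was not separate from CMi-EV for either, at 0.0481% to 0.0532% against 0.0465% to 0.0575% of the miRNA counts for miR-23a-3p, and at 0.0480% to 0.0755% against 0.0714% to 0.0898% for miR-27a-3p. CPC-EV, at 0.0435% to 0.0881% for miR-27a-3p, then overlapped with CMi-EV and not with hiPSC-EV.

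For the b cluster, miR-23b-3p had 118, 377 and 423 CPM in hiPSC-EV 1 to 3, 638, 623 and 639.8 CPM in CPC-EV, 486, 806 and 1009 CPM in CMi-EV, and 1042, 1438 and 1152 CPM in CMm-EV. All CPC-EV libraries were above all hiPSC-EV libraries, CPC-EV and CMi-EV overlapped, and with TMM CMm-EV lay above CMi-EV. miR-27b-3p had 2522, 4055 and 5396 CPM in hiPSC-EV 1 to 3, 5210.0, 6456 and 5513 CPM in CPC-EV, 5660.5, 6489 and 10155 CPM in CMi-EV, and 14207, 16133 and 17581 CPM in CMm-EV. With TMM, neighbouring stages overlapped up to CMi-EV and CMm-EV was separate from all others. With library size only, CMm-EV overlapped with CPC-EV and CMi-EV for both, as miR-27b-3p had 0.879% to 1.19% of the miRNA counts in CMm-EV, 0.593% to 1.03% in CMi-EV and 0.770% to 0.964% in CPC-EV. hiPSC-EV, at 0.309% to 0.452%, was then separate from CPC-EV. miR-23b-3p had 0.0576% to 0.0871%, 0.0509% to 0.102% and 0.0743% to 0.112% in the same groups. In hiPSC-EV 1, the library with the fewest counts, miR-23a-3p, miR-27a-3p, miR-23b-3p and miR-27b-3p were all at the lowest level of their group, and the part of depth in this was not tested.

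**Figure D1:**
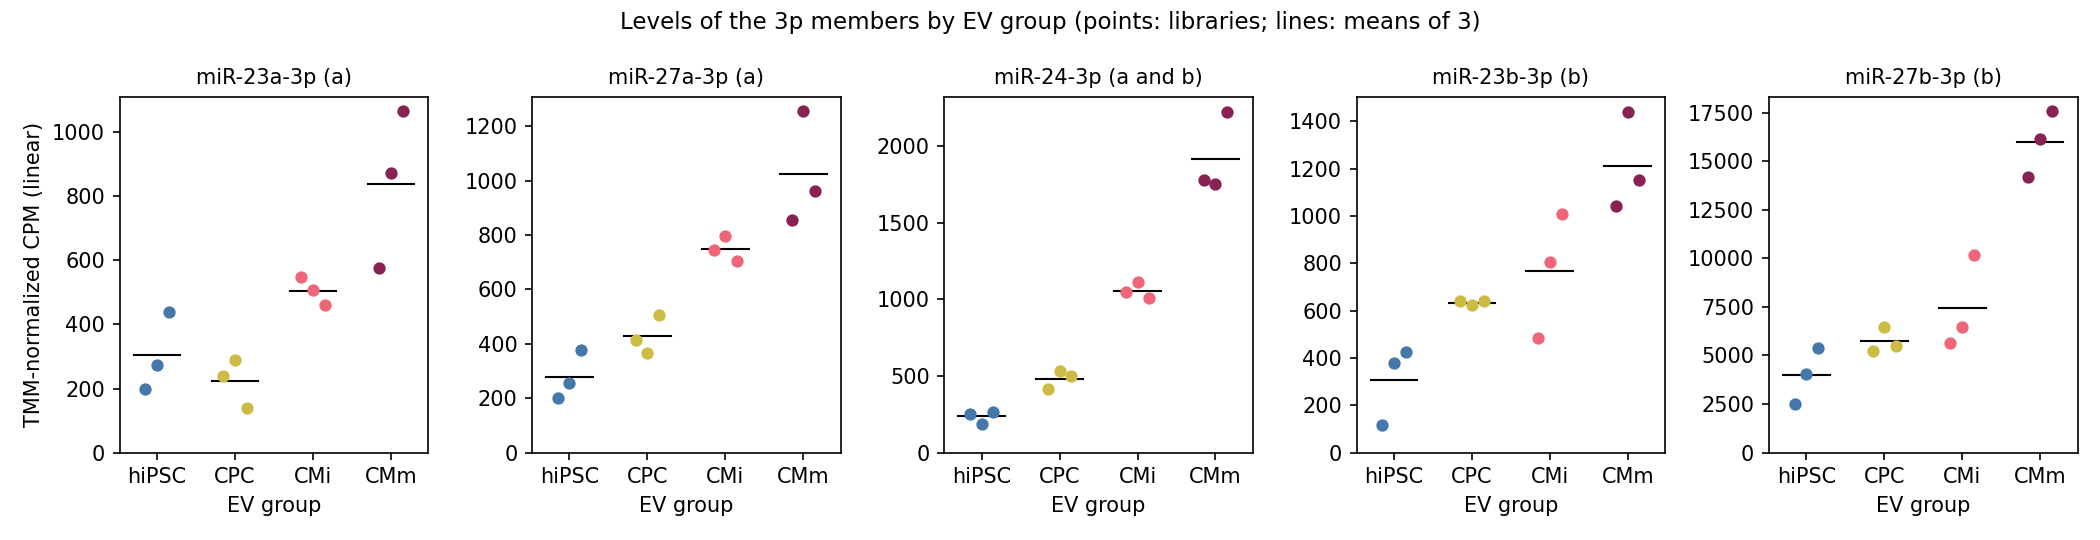
TMM-normalized CPM (linear axis, its own scale in each panel) of the 5 3p members in each library, by EV group, with a line at the mean of 3; a and b name the cluster. With TMM, miR-24-3p goes without overlap from between 187 and 265 CPM in hiPSC-EV to between 1750 and 2220 CPM in CMm-EV and miR-27b-3p stands apart in CMm-EV, while with library size only CMi-EV and CMm-EV overlap for both.

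The first step, from hiPSC-EV to CPC-EV, asks what changes in the EV as pluripotent cells commit to the cardiac lineage. miR-23b-3p, miR-24-3p and miR-27a-3p were called higher in CPC-EV, which required both FDR ≤ 0.05 and a log2 fold change of 1 or more, and miR-23a-3p was not. These are 3 of the 7 members, of which 6 passed the filter in this pair, against 39 of 338 tested miRNA called higher, or 11.5%. The log2 fold change was 1.51 ± 0.41 (SE, n = 3 and 3) for miR-23b-3p (FDR 0.0313), 1.43 ± 0.29 for miR-24-3p (FDR 0.00935) and 1.06 ± 0.33 for miR-27a-3p (FDR 0.0474). miR-27b-3p passed the FDR (0.0204) but not the fold criterion, at 0.95 ± 0.24, and miR-23a-3p was at -0.03 ± 0.39 (FDR 0.960). The median over the 6 that passed the filter was 1.25, beside -0.27 over all tested miRNA. miR-27b-5p, 1 of the 6, passed through CPC-EV alone, and the median of the 5 3p members was that of miR-27a-3p, 1.06.

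Each pair was scaled within its own 6 libraries, and therefore its fold changes differ somewhat from the ratios of the CPM above. In a fit on all 12 libraries, they were 1.30 for miR-23b-3p, 1.26 for miR-24-3p, 0.87 for miR-27a-3p, 0.76 for miR-27b-3p and -0.21 for miR-23a-3p. miR-27a-3p was then under the fold criterion. Single libraries mattered for the calls that were near the limits. That of miR-27a-3p was lost without hiPSC-EV 1 (FDR 0.104), hiPSC-EV 2 (0.158), CPC-EV 1 (0.140) or CPC-EV 3 (0.125), and that of miR-23b-3p without hiPSC-EV 2 (0.0619), CPC-EV 1 (0.102) or CPC-EV 3 (0.0956). miR-27b-3p was called without hiPSC-EV 3 (FDR 0.00675) or CPC-EV 2 (0.0191), with median-of-ratios factors (log2 fold change 1.09), with library size only (1.12) and in DESeq2. With filterByExpr, miR-23b-3p and miR-27a-3p were not called (FDR 0.0629 and 0.0687), and with no filter on low counts miR-27a-3p and miR-24-3p were not (0.316 and 0.0591). miR-24-3p was called with any 1 library left out. The small value of miR-23a-3p changed sign with median-of-ratios scaling (0.11), with library size only (0.12) and without hiPSC-EV 3 (0.30) or CPC-EV 3 (0.22). Over the alternatives without a block, the FDR ranged from 1.43e-04 to 0.316 for miR-27a-3p and from 4.27e-04 to 0.102 for miR-23b-3p.

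The second step, from CPC-EV to CMi-EV, covers the formation of immature cardiomyocytes. miR-23a-3p and miR-24-3p were called higher in CMi-EV, 2 of the 7 members (6 passed the filter), against 42 of 292 miRNA, or 14.4%. The log2 fold change was 1.18 ± 0.33 (SE, n = 3 and 3) for miR-23a-3p (FDR 0.0332) and 1.13 ± 0.18 for miR-24-3p (FDR 0.00358). miR-27a-3p was at 0.79 ± 0.23, under the fold criterion (FDR 0.0371). The b cluster gave smaller values, 0.24 ± 0.26 for miR-23b-3p (FDR 0.549) and 0.35 ± 0.21 for miR-27b-3p (FDR 0.287), and with library size as the only scaling both were negative, at -0.22 and -0.11. The median over the 6 was 0.57, beside -0.05 over all tested miRNA, and 0.79, that of miR-27a-3p, without miR-27b-5p, which passed the filter through CPC-EV alone. The call of miR-23a-3p was lost without CPC-EV 1 (FDR 0.0891), CMi-EV 1 (0.101) or CMi-EV 2 (0.0755), and without CPC-EV 3 through its fold change (0.89). It was also lost with library size only (FDR 0.0988), with no filter (0.115) and with filterByExpr (0.0540). The FDR of miR-23a-3p ranged from 0.00343 to 0.115 over the alternatives. miR-24-3p kept its call in all of them except library size only (log2 fold change 0.65, FDR 0.0637).

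The third step, from CMi-EV to CMm-EV, is the maturation of cardiomyocytes. No member met both criteria in edgeR's test, 0 of 7 (5 passed the filter), against 16 of 247 miRNA called higher, or 6.48%. At an unadjusted p under 0.05 there were 2, against 68 of 247 miRNA, and DESeq2 called 1 higher, against 22 of 247. Those 2 were miR-27b-3p, with a log2 fold change of 0.94 ± 0.25 (SE, n = 3 and 3, FDR 0.0466), and miR-24-3p, with 0.70 ± 0.19 (FDR 0.0472), which both missed the fold criterion. The remaining values were 0.58 ± 0.31 for miR-23a-3p, 0.50 ± 0.31 for miR-23b-3p and 0.29 ± 0.24 for miR-27a-3p, with an FDR of 0.283, 0.331 and 0.466. With library size as the only scaling, these 3 were negative, at -0.07, -0.08 and -0.30, while miR-27b-3p was at 0.37 (FDR 0.320) and miR-24-3p at 0.11 (FDR 0.753), and neither passed. Over the alternatives, the FDR ranged from 0.00108 to 0.320 for miR-27b-3p and from 9.82e-04 to 0.753 for miR-24-3p. miR-27b-3p was past both limits with median-of-ratios scaling (1.06, FDR 0.0221), in DESeq2, in the fit on all 12 libraries (1.09) and without CMi-EV 3 (1.30). Without any other single library its FDR was above the limit, at 0.0587 to 0.118. With 1 library left out, the FDR of miR-24-3p stayed under the limit only without CMm-EV 1 (0.0443). It was also under the limit with median-of-ratios scaling (0.0180), in DESeq2 and in the fit on all 12 libraries (0.0369), each time below the fold criterion. The count of all miRNA called in this pair, 41, was 20 without CMm-EV 2.

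Between the ends of the differentiation, 4 of the 7 members (5 passed the filter) were called higher in CMm-EV than in hiPSC-EV, against 54 of 336 miRNA, or 16.1%. miR-24-3p had the largest log2 fold change of the 5, 2.72 ± 0.32 (SE, n = 3 and 3, FDR 7.09e-04), or 6.61-fold. It was 1.68 ± 0.36 for miR-27b-3p (FDR 0.00697), 1.65 ± 0.55 for miR-23b-3p (FDR 0.0420) and 1.56 ± 0.42 for miR-27a-3p (FDR 0.0178). For miR-23a-3p it was 1.13 ± 0.46 (FDR 0.0759), and the call was missed. The median over these 5 was 1.65, beside -1.53 over all tested miRNA. miR-24-3p and miR-27b-3p were called in each of the 12 alternatives. miR-23a-3p was called without hiPSC-EV 3 (FDR 0.0280) or CMm-EV 1 (0.00838), with median-of-ratios scaling (0.0124), in DESeq2 and in the fit on all 12 libraries (0.00322). The call of miR-23b-3p was lost without hiPSC-EV 2 (FDR 0.0903) or CMm-EV 2 (0.0552), and that of miR-27a-3p without hiPSC-EV 2 (0.0751). This comparison shares its libraries with the steps above.

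The median of all tested miRNA depends on the scaling, and the members moved with it. Between CMm-EV and hiPSC-EV it was -1.20 with median-of-ratios factors and -1.97 with library size only. It moved from -0.05 to -0.52 with library size only in CMi-EV against CPC-EV, and from -0.30 to -0.91 in CMm-EV against CMi-EV. A change of factors moves all miRNA of a pair nearly alike, so that distances from the median hardly depend on it by construction and do not show which scaling is right. Relative to that median, miR-24-3p was higher in CMm-EV than in hiPSC-EV by 4.25 on the log2 scale with TMM, 4.20 with median-of-ratios factors and 4.32 with library size only. For miR-23a-3p the same values were 2.66, 2.69 and 2.77. At the last step, where signs changed with the scaling, miR-23a-3p stood above the median by 0.87, 0.88 and 0.84, miR-23b-3p by 0.80, 0.82 and 0.83, and miR-27a-3p by 0.59, 0.61 and 0.62. The median depends on the filter and on single libraries as well. Between CMm-EV and hiPSC-EV it was -0.92 with filterByExpr, -3.19 with no filter and -0.81 without CMm-EV 1. The log2 fold change of miR-24-3p was then 2.80, 2.69 and 3.02, so that its distance from the median is not fixed.

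**Figure D2:**
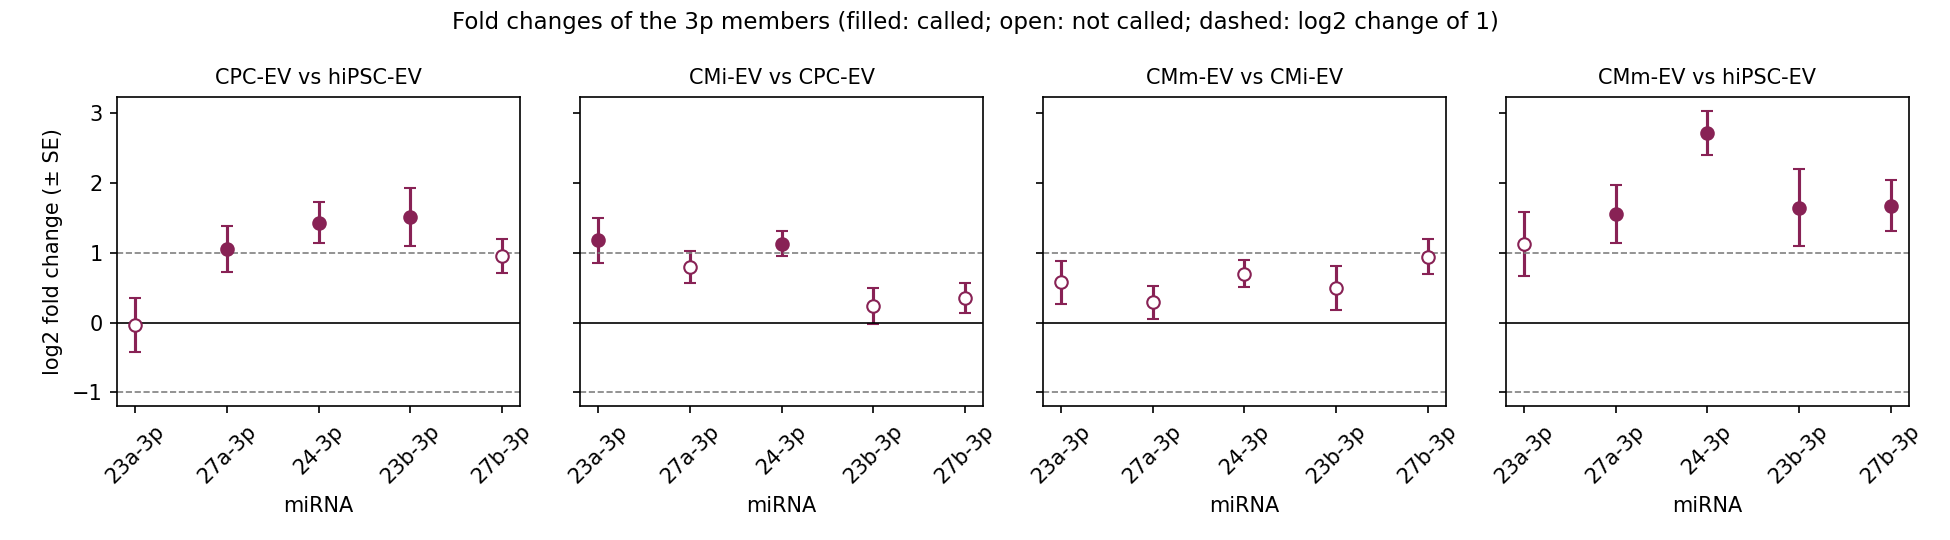
Log2 fold change (± SE, 3 libraries a group) of the 5 3p members in each comparison of EV groups; filled points met both criteria, FDR ≤ 0.05 and the fold limit of 1 (dashed lines), open points did not. miR-23a-3p lies at -0.03 in CPC-EV against hiPSC-EV, a value whose sign depends on the scaling, and miR-24-3p reaches 2.72 between CMm-EV and hiPSC-EV.

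A call for miR-23b-3p and none for miR-23a-3p at the first step does not show that the clusters differed, and the ratio of the paralogs within each library was therefore tested. The ratio needs no scaling between libraries. Over all 15400 unordered divisions of the 12 libraries by 3, an exact permutation test compared the sum of squares between groups, which has no direction, and its p was adjusted over 7 ratios. The log2 ratio of miR-23a-3p to miR-23b-3p was 0.75, -0.46 and 0.05 in hiPSC-EV 1 to 3, -1.41, -1.11 and -2.19 in CPC-EV, 0.17, -0.67 and -1.13 in CMi-EV, and -0.86, -0.72 and -0.11 in CMm-EV. All CPC-EV libraries were below all hiPSC-EV and CMm-EV libraries, and CMi-EV 3 fell just within the range of CPC-EV. miR-23a-3p and miR-23b-3p were thus about level in hiPSC-EV (geometric mean ratio 1.08), and in CPC-EV miR-23b-3p had 2.97 times the counts of miR-23a-3p. In CMi-EV and CMm-EV it had 1.46 and 1.48 times the counts. The exact p was 0.0337, but 0.178 after adjustment, so the difference between groups did not pass.

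For miR-27 the b form led in every library. The log2 ratio of miR-27a-3p to miR-27b-3p was -3.64, -3.99 and -3.83 in hiPSC-EV 1 to 3, -3.66, -4.15 and -3.45 in CPC-EV, -2.92, -3.03 and -3.85 in CMi-EV, and -4.06, -3.68 and -4.19 in CMm-EV. The groups overlapped, with CMi-EV 1 and CMi-EV 2 the highest of all libraries and CMi-EV 3 among the rest. By geometric mean, miR-27b-3p had 14.1 times the counts of miR-27a-3p in hiPSC-EV, 13.5 times in CPC-EV, 9.62 times in CMi-EV and 15.8 times in CMm-EV. The exact p was 0.140 (adjusted 0.246). In counts, miR-23a-3p and miR-27a-3p were between 8.45% (CPC-EV 2) and 17.4% (CMi-EV 1) of the sum of the a and b forms.

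Within the a cluster, miR-23a-3p and miR-27a-3p come from the same primary transcript, and their ratio was even in hiPSC-EV. The log2 ratio of miR-23a-3p to miR-27a-3p was -0.02, 0.10 and 0.22 in hiPSC-EV 1 to 3, -0.78, -0.33 and -1.85 in CPC-EV, -0.44, -0.65 and -0.62 in CMi-EV, and -0.57, -0.53 and 0.15 in CMm-EV. All hiPSC-EV libraries were above all CPC-EV and CMi-EV libraries, while CMm-EV 3 fell among those of hiPSC-EV. CPC-EV was the most spread group, with an SD of 0.78 against 0.12 in hiPSC-EV. The exact p was 0.0507 (adjusted 0.178), and without CPC-EV 2 the adjusted p was 0.0123, the 1 omission among 12 that brought it under 0.05.

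Within the b cluster, miR-27b-3p had between 9.00 (CPC-EV) and 14.3 times (hiPSC-EV) the counts of miR-23b-3p by geometric mean. The log2 ratio of miR-23b-3p to miR-27b-3p was -4.41, -3.43 and -3.67 in hiPSC-EV 1 to 3, -3.03, -3.37 and -3.11 in CPC-EV, -3.54, -3.01 and -3.33 in CMi-EV, and -3.77, -3.49 and -3.93 in CMm-EV. hiPSC-EV 1 was the lowest library, CPC-EV lay above hiPSC-EV and CMm-EV, and CMi-EV overlapped with CPC-EV. The exact p was 0.0865 (adjusted 0.202). The mean of CMm-EV exceeded that of hiPSC-EV by 0.11, and without hiPSC-EV 1 or CMm-EV 2 this difference was negative, at -0.18 and -0.01.

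**Figure D3:**
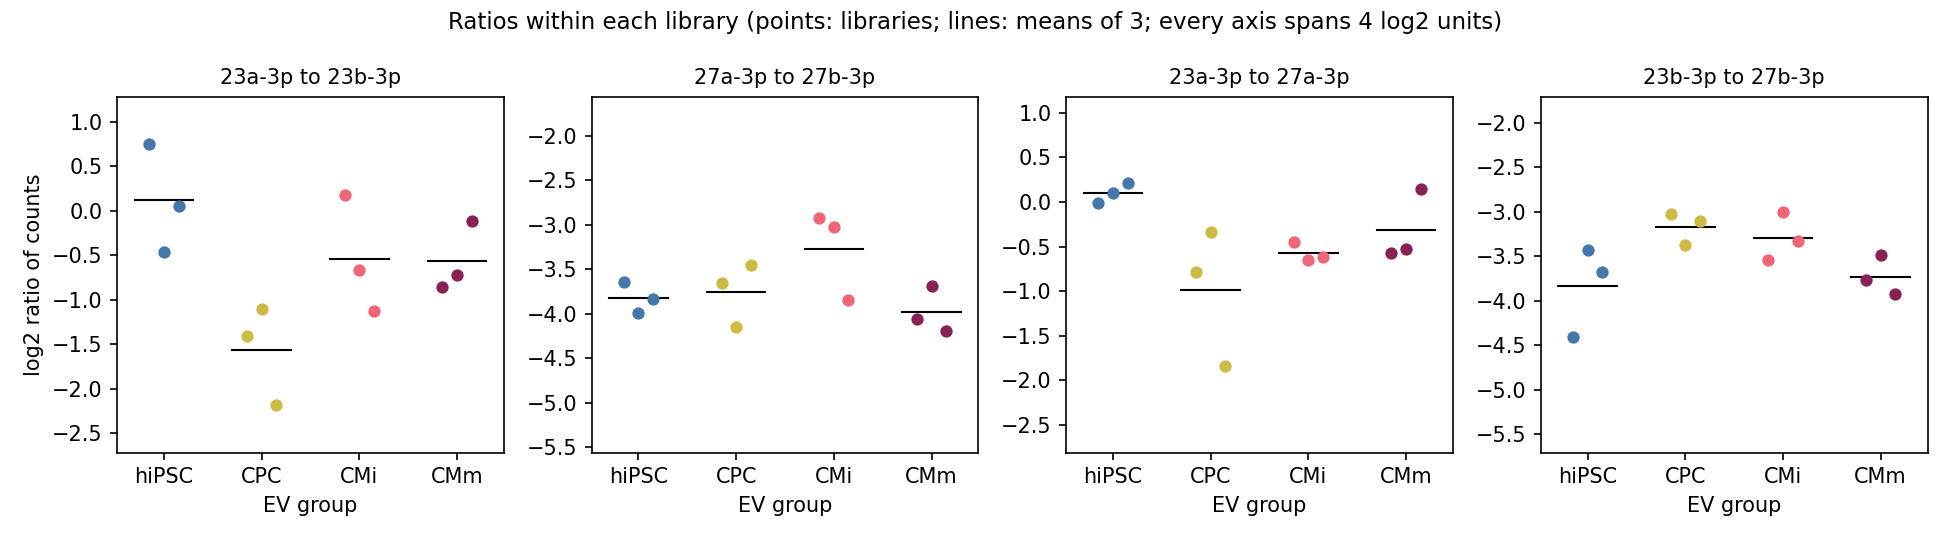
Log2 ratio of counts within each library for the paralogs (miR-23a-3p to 23b-3p, miR-27a-3p to 27b-3p) and for neighbours of a cluster (miR-23a-3p to 27a-3p, miR-23b-3p to 27b-3p), by EV group, with a line at the mean of 3 and the same span on every axis. CPC-EV has the lowest mean for miR-23a-3p to 23b-3p, with libraries at -1.11 to -2.19 and CMi-EV 3 within that range at -1.13, and no ratio passed the test after adjustment.

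The 5p arms of miR-27 were rare. miR-27a-5p had 16 counts in CPC-EV 3, 27 counts in CMi-EV 3, 40 counts in CMm-EV 2 and 0 in the 9 other libraries. miR-27b-5p had 0, 29 and 43 counts in hiPSC-EV 1 to 3, 29, 171 and 238 in CPC-EV, 0, 38 and 41 in CMi-EV, and 0, 89 and 198 in CMm-EV. Replicates of a group thus ranged from 0 up to 198 counts in CMm-EV, and the groups overlapped. In CPM, miR-27b-5p was at 47.3 ± 38.9 (SD, n = 3) in CPC-EV and at 6.90 ± 6.09 in hiPSC-EV, a log2 fold change of 3.22 ± 1.27 (SE) that did not pass in edgeR's test (FDR 0.127). It passed the filter through CPC-EV alone, the group in which it is high, which favours a positive value. DESeq2 called it (3.36, FDR 0.0265), with no filter edgeR gave 3.01 (FDR 0.249), and over the alternatives the FDR ranged from 0.0265 to 0.388. With 1 library left out, the log2 fold change ran from 2.29 (without CPC-EV 3) to 3.74 (without hiPSC-EV 2). Ratios that hold these arms rest on counts of 0 in part of the libraries and on the 0.5 added to each count. The exact p was 0.577 for miR-27a-5p to miR-27b-5p (adjusted 0.673), 0.981 for miR-27a-3p to miR-27a-5p (adjusted 0.981) and 0.488 for miR-27b-3p to miR-27b-5p (adjusted 0.673).

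The other arms of the 6 precursors gave 1 further expressed miRNA, miR-23b-5p. Its counts were 0, 15 and 12 in hiPSC-EV 1 to 3, 199, 267 and 189 in CPC-EV, 77, 200 and 27 in CMi-EV, and 168, 1126 and 306 in CMm-EV. In CPM, these were at most 5.96 in hiPSC-EV, between 66.2 and 76.4 in CPC-EV, between 19.6 and 105 in CMi-EV and between 121 and 299 in CMm-EV. CPC-EV and CMm-EV were each apart from hiPSC-EV, and CMi-EV overlapped with CPC-EV. The log2 fold change of miR-23b-5p in CPC-EV against hiPSC-EV was 5.01 ± 1.00 (SE, n = 3 and 3, FDR 0.0130), and without hiPSC-EV 3 the call was missed (FDR 0.0587). Without hiPSC-EV 2 the log2 fold change was 5.94. It was 5.75 ± 0.96 in CMm-EV against hiPSC-EV (FDR 0.00386), called in all alternatives without a block, and 6.65 without hiPSC-EV 2. In CMm-EV against CMi-EV it was 1.81 ± 0.77 (FDR 0.200), and 2.76 without CMi-EV 2. In CMi-EV against CPC-EV it was negative, at -0.45 ± 0.81 (FDR 0.720), and ran from -1.38 to -0.05 with 1 library left out. Against hiPSC-EV, miR-23b-5p passed the filter through the later group alone, which favours a positive value, and with no filter it was called as well, at 4.86 in CPC-EV (FDR 0.00328) and 5.73 in CMm-EV (FDR 1.91e-07). miR-23b-5p and miR-23b-3p are the 2 arms of the same hairpin, and in CPC-EV both lay above hiPSC-EV in every library.

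The 5p arm of miR-23a was found in CMm-EV alone, with 18 counts in CMm-EV 1, 28 in CMm-EV 2 and 0 elsewhere, and was too rare for the filter. miR-24-1-5p and miR-24-2-5p share a seed and their first 15 bases, and they separate mir-24-1 of the b cluster from mir-24-2 of the a cluster, which miR-24-3p cannot. miR-24-1-5p had 36 counts in CMm-EV 2, 22 in CMm-EV 3 and 0 in all other libraries. miR-24-2-5p had 40, 62 and 21 counts in CMm-EV 1 to 3, 8 and 14 in hiPSC-EV 2 and hiPSC-EV 3, and 0 in the 7 other libraries. At these depths, either precursor was seen in CMm-EV, and the origin of miR-24-3p in CPC-EV and CMi-EV was not detectable through its 5p arms.

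From the strand opposite mir-24-1, miR-3074-5p (chr9:95086063-95086083) overlaps the site of miR-24-3p (chr9:95086064-95086085), and whether the counting used strand is not given in the sources used here. Its mean level (± SD, n = 3) was 22.3 ± 9.20 CPM for hiPSC-EV, 37.5 ± 41.7 CPM for CPC-EV, 29.8 ± 7.84 CPM for CMi-EV and 10.3 ± 8.93 CPM for CMm-EV. With TMM, the groups overlapped except CMi-EV and CMm-EV, and the F-test of miR-3074-5p did not pass (FDR 0.724). miR-3074-3p had 250 counts in all, of which 172 were in CPC-EV.

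**Figure D4:**
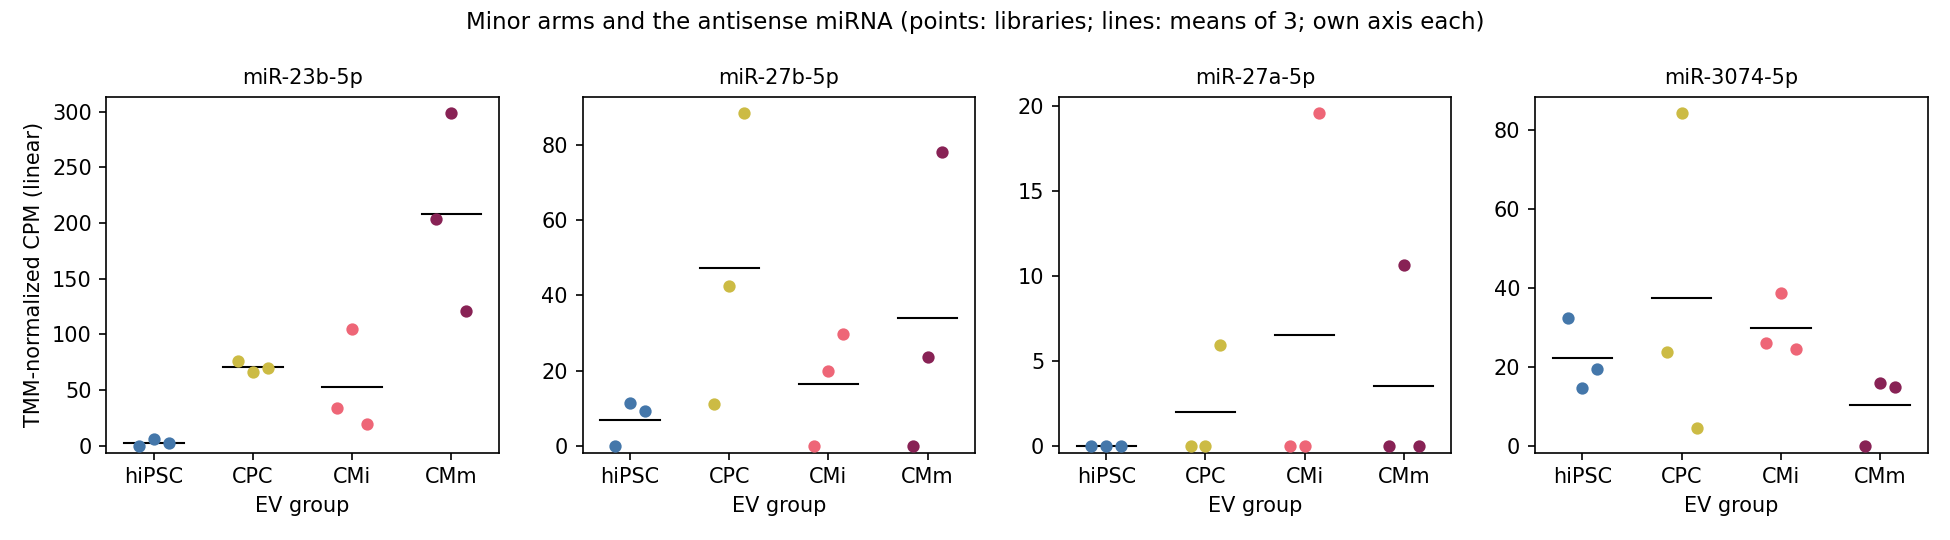
TMM-normalized CPM (linear axis, its own scale in each panel) of miR-23b-5p, miR-27b-5p, miR-27a-5p and miR-3074-5p in each library, by EV group, with a line at the mean of 3. miR-23b-5p is at most 5.96 CPM in hiPSC-EV and between 66.2 and 76.4 CPM in CPC-EV, whereas the libraries of a group scatter widely for the other miRNA, several of them at 0.

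Together, the 5 3p members took a share of the miRNA counts that was small, and larger after hiPSC-EV. The share was 0.404%, 0.516% and 0.578% in hiPSC-EV 1 to 3, 1.07%, 0.986% and 1.28% in CPC-EV, 0.890%, 1.10% and 1.35% in CMi-EV, and 1.54%, 1.29% and 1.15% in CMm-EV. All 9 libraries of the later stages lay above all hiPSC-EV libraries, and the later groups overlapped with one another. hiPSC-EV had a mean of 0.499% ± 0.0885 (SD, n = 3), CPC-EV of 1.11% ± 0.149, CMi-EV of 1.11% ± 0.230 and CMm-EV of 1.33% ± 0.200 (exact permutation test over 15400 divisions, p = 0.00656). The difference between CMm-EV and hiPSC-EV was 0.828 percentage points. The counting error of a single library was small beside the spread within groups, as in hiPSC-EV 1, with a 95% Wilson interval of 0.389% to 0.419%. Of the counts on the 5, miR-27b-3p held between 66.7% (CMi-EV 1) and 78.8% (hiPSC-EV 2).

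**Figure D5:**
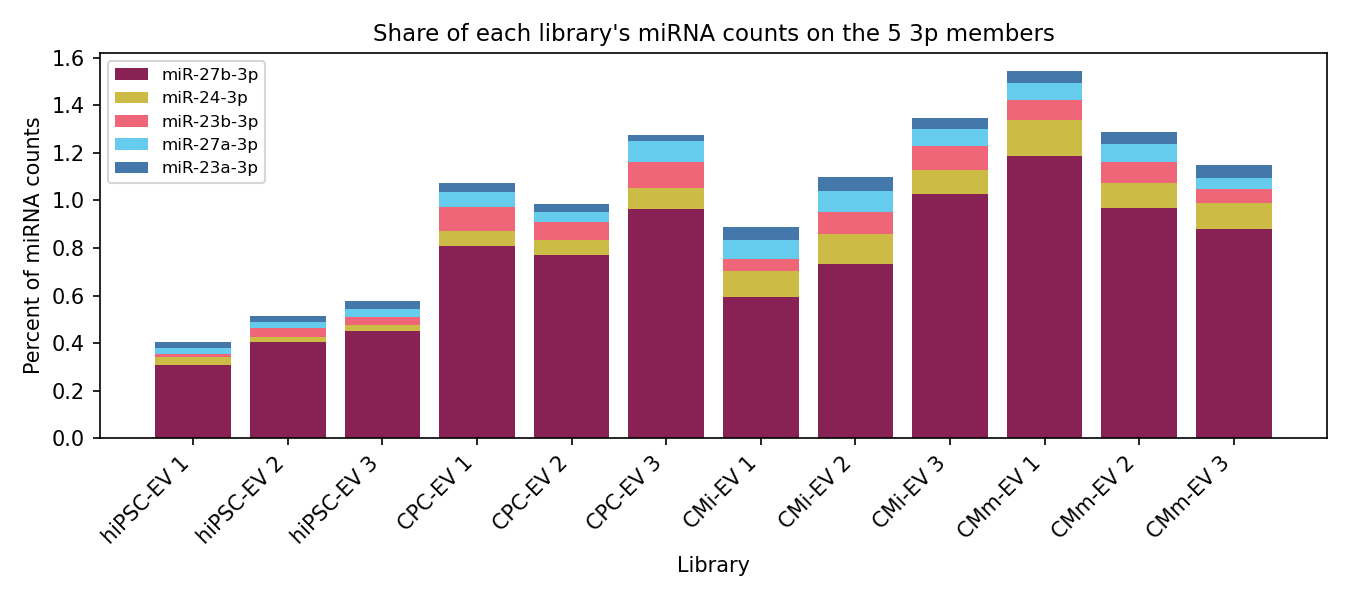
Percent of each library's miRNA counts on the 5 3p members, stacked by miRNA from 0, for the 12 libraries. The 3 hiPSC-EV libraries reach 0.404% to 0.578% and the 9 others 0.890% to 1.54%, and miR-27b-3p makes up most of every bar.

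Across the 12 libraries, on log2(TMM-normalized CPM + 1), the 3p members were compared with one another as a description, since the libraries fall into 4 groups and share their normalization. miR-24-3p had a Pearson r of 0.94 with miR-27a-3p, 0.88 with miR-27b-3p, 0.79 with miR-23b-3p and 0.78 with miR-23a-3p. The b forms had r = 0.91 with each other and the a forms 0.78, and the lowest value of all pairs was that of miR-23a-3p and miR-23b-3p, at 0.63.

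Among the other expressed miRNA, those with the most similar profiles were sought in the same way. By Pearson r, for the mean of miR-23a-3p and miR-27a-3p, they were let-7e-5p (r = 0.94, Spearman's rho = 0.92), let-7c-5p (0.94, 0.90) and miR-133b, a muscle miRNA (0.93, 0.86). For the mean of miR-23b-3p and miR-27b-3p they were let-7e-5p again (0.93, 0.86), miR-628-3p (0.91, 0.89) and miR-125a-5p (0.90, 0.94). For miR-24-3p they were miR-143-3p, abundant in smooth muscle and fibroblasts (0.99, 0.95), miR-125a-5p (0.98, 0.94) and miR-1-3p, abundant in heart and skeletal muscle (0.97, 0.93). With 0.1 in place of 1 added to the CPM, r for these was between 0.90 and 0.99. The order depends on the measure, as by rho let-7c-5p and miR-133b were at place 5 and 14 for the a forms, let-7e-5p and miR-628-3p at place 15 and 10 for the b forms, and miR-1-3p at place 6 for miR-24-3p, and with 0.1 added let-7e-5p was at place 5 for the a forms. The profiles differ in size: miR-143-3p went from 306 CPM ± 119 (SD, n = 3) in hiPSC-EV to 167055 ± 36237 in CMm-EV, and miR-24-3p from 235 ± 42.0 to 1916 ± 264.

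As the groups are named for cell types, marker lists were read beside the clusters. The 8 pluripotency miRNA of the miR-302/367 and miR-371 to miR-373 families, led by miR-302b-3p, summed to 172070, 178026 and 210409 CPM in hiPSC-EV 1 to 3, and to 302, 133 and 110.0 CPM in CMm-EV. Between these ends, the sums were 70680, 78830 and 48623 CPM in CPC-EV and 5442, 6757 and 4001 CPM in CMi-EV. The 7 miRNA of cardiac and skeletal muscle, led by miR-1-3p, summed to 65.0, 46.5 and 79.1 CPM in hiPSC-EV, 757, 869 and 1533 CPM in CPC-EV, 52641, 75627 and 20797 CPM in CMi-EV, and 37822, 51454 and 208419 CPM in CMm-EV. CMi-EV and CMm-EV overlapped for the muscle list, where CMm-EV 3 carries the higher mean, and miR-1-3p was not called between them (log2 fold change 0.89, FDR 0.481). The pluripotency sum is almost all miR-302b-3p. In CPC-EV, 2 of the 7 tested on that list were called lower than in hiPSC-EV, against 54 of 338 miRNA (16.0%), and miR-372-3p and miR-373-3p had higher means in CPC-EV, at 258 and 39.1 CPM, than in hiPSC-EV, at 177 and 23.2 CPM, neither of them called.

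miRNA of other cell types moved over the same libraries. Those of smooth muscle and fibroblasts, 6 of 7 in the count table and led by miR-143-3p, summed to 237, 326 and 569 CPM in hiPSC-EV 1 to 3, 3461, 3624 and 6479 CPM in CPC-EV, 42773, 40933 and 69091 CPM in CMi-EV, and 137627, 172645 and 213191 CPM in CMm-EV. The sum is mostly miR-143-3p, with a mean of 167055 CPM in CMm-EV. From CMi-EV to CMm-EV the others on the list did not go the same way. The means were 530 and 1211 CPM for miR-143-5p (called, log2 fold change 1.03, FDR 0.0272), 533 and 718 CPM for miR-145-5p and 7100 and 5451 CPM for miR-145-3p, of which the last 2 were not called. In CMi-EV, miR-199a-5p and miR-214-3p had counts in CMi-EV 3 alone, with means of 291 ± 505 and 20.5 ± 35.6 CPM (SD, n = 3). Their part in the levels of the clusters was not tested, and miR-199a-3p of the list was not in the count table. The endothelial miR-126-3p and miR-126-5p summed to 76.6, 90.2 and 115 CPM in hiPSC-EV, 49.1, 66.2 and 94.1 CPM in CPC-EV, 55.1, 66.2 and 71.0 CPM in CMi-EV, and 0, 21.5 and 26 CPM in CMm-EV. The endoderm and liver list, all 4 in the table and led by miR-192-5p, had its highest mean in CPC-EV, at 6952, 8865 and 6304 CPM, overlapping with CMi-EV, and was at 1302, 1822 and 2251 CPM in hiPSC-EV, 3764, 3470.0 and 7218 CPM in CMi-EV, and 2795, 2243 and 4459 CPM in CMm-EV. Of its 4 miRNA, only miR-375-3p had its highest mean in CPC-EV, at 4032 CPM, and the other 3 had theirs in CMi-EV, such as miR-192-5p at 3353 CPM against 2542 CPM in CPC-EV. The blood and serum list, 5 of 7 in the table and led by miR-486-5p, was highest in hiPSC-EV, at 5307, 7161 and 8697 CPM. It was at 940.4, 857 and 1152 CPM in CPC-EV, 2052, 2082 and 728 CPM in CMi-EV, and 832, 771 and 875 CPM in CMm-EV, and miR-223-3p and miR-142-3p were not in the count table. This sum is almost all miR-486-5p, which is also found in muscle, at a mean of 7016 CPM in hiPSC-EV. miR-451a and miR-144-3p had their highest means in CPC-EV, at 23.8 and 3.47 CPM.

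Other miRNA known for endothelial cells and angiogenesis were read beside the clusters. Of the 15 on this list, 13 were tested between CMm-EV and hiPSC-EV. Among them, 7 were called lower, against 126 of 336 miRNA (37.5%), and 1, let-7f-5p, higher, against 54 of 336 (16.1%). The median log2 fold change was -3.66, beside -1.53 over all tested miRNA and 1.65 over the 5 tested members. Of the 7, miR-221-3p, miR-17-5p, miR-18a-5p and miR-126-5p passed the filter through hiPSC-EV alone, which favours a lower value in CMm-EV. In CPC-EV against hiPSC-EV, 5 of 13 were lower and 0 higher in edgeR's test, against 54 (16.0%) and 39 of 338 miRNA, with a median of -1.01 beside -0.27 over all tested. Of these 5, miR-296-5p passed through hiPSC-EV alone. The most abundant were miR-92a-3p, whose mean was 111567 CPM ± 6200 (SD, n = 3) in hiPSC-EV and 16252 ± 846 in CMm-EV, and miR-222-3p, with 14751 ± 921 and 493 ± 224. miR-20a-5p went from 3149 ± 1596 to 95.4 ± 8.05 CPM and miR-221-3p from 2668 ± 1185 to 29.1 ± 27.7 CPM.

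The muscle miRNA were called higher in CMm-EV than in hiPSC-EV for 6 of the 7 on the list, all that were tested, against 54 of 336 miRNA (16.1%). Most of these passed the filter through CMm-EV alone, which favours a higher value there. miR-208a-3p, miR-499a-5p, miR-133b and miR-208b-3p had means of at most 1.22 CPM in hiPSC-EV. miR-206, low in both groups, was not tested. The 6 had a median log2 fold change of 8.05 when miR-208b-3p, which had no count in hiPSC-EV, was set at its bound of 3 counts per library. Mean levels in CMm-EV were 94017 CPM ± 94972 (SD, n = 3) for miR-1-3p, 4009 ± 1131 for miR-133a-3p, 625 ± 112 for miR-208a-3p and 368 ± 110.2 for miR-499a-5p. In hiPSC-EV all 4 were under 50 CPM, where miR-24-3p was at 235 CPM. Of the 8 miRNA linked to cardiac hypertrophy and fibrosis, 3 were tested between CMm-EV and hiPSC-EV, 1 was higher and 0 lower in edgeR's test, against 54 and 126 of 336 miRNA (16.1% and 37.5%), with a median of -0.42 beside -1.53 over all tested. The most abundant of them, miR-21-5p, was at 7448 ± 2433 CPM in hiPSC-EV, 1498 ± 223 in CPC-EV and 6943 ± 1177 in CMm-EV. miR-199a-5p, the 1 called higher, which passed the filter through CMm-EV alone, had 1.21 ± 2.09 CPM in hiPSC-EV and 43.5 ± 14.5 in CMm-EV, miR-29a-3p 81.9 ± 22.5 and 10.5 ± 9.39, and miR-214-3p 0 and 9.03 ± 8.10. miR-29c-3p of this list was at 0 in all libraries, and miR-199a-3p was not in the count table.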

How the data were processed

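Per the methods of the study, the authors assigned small RNA reads with the exceRpt pipeline to hg38 and miRBase, and deposited expected counts per miRNA and library, of which 9.11% of the non-zero values were not whole. The expected counts were rounded to whole numbers for all tests. RPM deposited by the authors, reads scaled to library totals, served for 1 alternative of the share. The members and lists were chosen with earlier results of these data known.

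Pairwise comparisons used the quasi-likelihood test of edgeR 4.0.16 in R 4.3.3, two-sided, on miRNA for which all 3 libraries of either group reached 5 CPM. The 6 libraries of a pair were scaled with TMM, and p was adjusted after Benjamini and Hochberg for every miRNA tested. Calls needed FDR ≤ 0.05 and a log2 fold change of 1 or more in either direction. An F-test on all 12 libraries compared the 4 groups. Standard errors came from the fit and its quasi-dispersion. Ratios took rounded counts plus 0.5, and the share took the sum of the 5 3p members. Named were the members, the other arms of their precursors, miR-3074, miRNA with the same seed, host fragments, the 3 most similar profiles of each kind and the 4 most abundant miRNA of each of 3 lists. Marker lists are given by their sums.

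Alternatives were median-of-ratios factors, library size only, no filter, filterByExpr, DESeq2 1.42.0, a joint fit of the 12 libraries, the replicate number as a block, omission of each library, and, for ratios and share, other added counts, unrounded counts and other denominators. The tests were tried on simulated data first. Replicates scattered beyond counting error (chi-square divided by its degrees of freedom, 51.6 to 712). Permutation tests ran in Python 3.11.15 (pandas 2.3.3, numpy 2.4.6, scipy 1.17.1), and matplotlib 3.10.9 drew the figures.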

Additional observations from a re-analysis of the deposited data

How the results depend on the processing

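For the ratios, the share and the counts of called miRNA, 61 values under other settings and 120 values with 1 library left out kept their direction, their side of the threshold and, for counts, stayed within 1.5 times. Under other settings, 3 counts moved by more and 2 values changed direction. With 1 library left out, 10 values changed direction, 1 count moved by more and 1 value came under the threshold. With the replicate number as a block, 39 miRNA were called between CPC-EV and hiPSC-EV and 17 between CMm-EV and CMi-EV, against 93 and 41. The fit then has fewer degrees of freedom. Same-numbered libraries did not deviate together (mean r = 0.00490, from -0.121 to 0.0989), and 4 of 12 libraries correlated best with their own number. With 3 libraries a group, this cannot exclude that the numbers pair the samples, which the labels do not give. Under the block, miR-24-3p, miR-23b-3p and miR-27a-3p had an FDR of 0.0623, 0.0944 and 0.104 in CPC-EV against hiPSC-EV, miR-23b-5p of 0.0909 there and miR-23a-3p of 0.0509 in CMi-EV against CPC-EV, so that none of these was called, and the difference in share was 0.828 points (exact p = 0.0313).

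With filterByExpr, 27 miRNA were called between CMm-EV and CMi-EV, and with 1 library left out 20 to 60. With library size only, 31 of 87 calls between CMi-EV and CPC-EV were higher, against 42 of 83, and 10 of 52 between CMm-EV and CMi-EV, against 16 of 41. The log2 fold change of miR-23a-3p in CPC-EV against hiPSC-EV was 0.11 with median-of-ratios factors, 0.12 with library size only and 0.11 in DESeq2, and ran from -0.25 to 0.30 with 1 library left out. With library size only, values changed sign for miR-23b-3p (-0.22) and miR-27b-3p (-0.11) in CMi-EV against CPC-EV, and for miR-23a-3p (-0.0683), miR-23b-3p (-0.0783) and miR-27a-3p (-0.30) in CMm-EV against CMi-EV, since this scaling lowers all of them. None of these passed the test.

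Among differences of log2 ratios between CMm-EV and hiPSC-EV, adding 5 to each count turned those of miR-27a-5p to 27b-5p (-0.13, from 0.85) and miR-27a-3p to 27a-5p (0.71, from -0.33), which rest on counts of 0. With 1 library left out, they ran from -0.78 to 3.54 and from -1.53 to 1.17, that of miR-27b-3p to 27b-5p from -1.29 to 2.06, that of miR-23b-3p to 27b-3p from -0.18 to 0.31 and that of miR-23a-3p to 27a-3p from -0.65 to -0.29. The cause was not tested. The share difference ran from 0.720 to 0.917 points. Comparing 3 against 3 libraries alone, a permutation test cannot go below p = 0.10.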
